A study of Mus musculus with 15 samples.

Results

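The replication-dependent histone genes are the repeated genes that supply linker histone H1 and the core histones H2A, H2B, H3 and H4 while DNA is copied. Among the 27179 rows of the count table, 69 rows were taken as members because the gene symbol belonged to the current H1f1 to H1f6, H2ac, H2bc, H3c or H4c series (63 rows) or to the older Hist series only (6 rows). They comprised 6 H1, 19 H2A, 19 H2B, 12 H3 and 13 H4 genes, of which 55 lie on chromosome 13, 10 on chromosome 3, 3 on chromosome 11 and 1 on chromosome 6. Of the 69, 62 had enough counts to be tested.

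Cells copying their DNA make these histones in bulk, package the new DNA with them, and stop when replication ends. Unlike other abundant messages, theirs carry no poly-A tail. They end in a short stem-loop that is bound by the stem-loop binding protein Slbp and cut with the help of the U7 small nuclear RNA. In the intestine dividing cells sit in the crypts, where the epithelial stem and progenitor cells are found, and differentiated cells have left the cycle. The libraries were made from total RNA with ribosomal RNA depleted, so an RNA without a poly-A tail can be sequenced.

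All mice carried the Lrig1-eGFP-IRES-CreERT2 reporter and the APCmin allele, the epithelium labelled normal included. Lrig1 is a transmembrane inhibitor of growth factor receptors and a marker of intestinal stem cells. Cells positive for EpCam and negative for CD45 and CD31 were sorted for high or low eGFP from epithelium labelled as normal colon or from dissected colonic tumors, which gave 4 normal Lrig1-low libraries (S01, S05, S09 and S13), 4 normal Lrig1-high libraries (S02, S06, S10 and S14), 3 tumor Lrig1-low libraries (S03, S07 and S11) and 3 tumor Lrig1-high libraries (S04, S08 and S12). S15, labelled as one more library of tumor Lrig1-low cells, was left out because it held only 357 counts, none of them in a histone gene. Neither age, sex nor the animal behind a library is given, so the p-values measure only the spread between these libraries, which may be technical. Below, values of a group are given in the order of the library numbers above, in counts per 1000000 (CPM) after scaling with edgeR's TMM factors, the trimmed-mean factors that adjust for composition.

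The 14 libraries held 9508505 to 17296536 counts, of which 0.0967% to 0.519% fell in histone genes. Epcam stood at 604.7 to 1509 CPM. Against the colon label, Hoxb13 and Hoxd13, which pattern the distal gut, had no count in any library and Car1, a colonocyte carbonic anhydrase, reached at most 0.222 CPM, while the small intestinal brush border enzyme Sis stood at 101.5 to 3034 CPM. Over the whole lists, the 11 colon markers, of which 7 passed the filter on low counts, had a mean log2(CPM + 1) of 1.33 to 2.58 and a median of 0.108 to 5.84 CPM in the 14 libraries, the highest median in S03. Slc26a3, an intestinal chloride exchanger, was their most counted gene at 15.8 to 163 CPM. The 14 small intestine markers had a mean of 6.65 to 8.64 and a median of 90.8 to 421.7 CPM. Lrig1 RNA did not follow the sort in 4 libraries. It was 142 CPM in S07 and 85.5 CPM in S09, both labelled low, and 55.7 CPM in S08 and 36.4 CPM in S10, both labelled high. The other 5 libraries labelled low lay between 43.03 and 53.97 CPM, and the other libraries labelled high at 126, 148, 138, 72.6 and 146 CPM. S12 stood apart in a further way, with 42.8% of its counts in mitochondrial ribosomal RNA against 12.9% to 27.1% elsewhere and 10 histone genes at 0 counts. S08 also had 10 histone genes at 0, and the other libraries 0 to 6. S12 and S08 had the fewest genes with a count, 11995 and 12900, against 14642 to 16425 in the other libraries. The calls of members are given with and without S07, S08, S09 and S10. S12 stayed in the fit without those 4, and fits left it out only by itself.

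The sequence features by which these genes are known are the 3′ stem-loop and the promoter elements of each family, and both are shown here for members that the results turn on. The stem-loop was searched in the transcripts of GENCODE M21, on the sense strand, as a first arm of 6 bases beginning with GG and ending with T, a loop of 4 bases in the form TNTN, and a second arm complementary to the first. It was found in 46 of the 68 members with a transcript (4 of 6 H1, 11 of 19 H2A, 10 of 18 H2B, 9 of 12 H3 and 12 of 13 H4 genes), against 0.143% of all 55341 gene symbols with a transcript. The stem-loop is in capitals, with 5 bases on either side.
H1f4: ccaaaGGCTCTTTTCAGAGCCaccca
H2ac6: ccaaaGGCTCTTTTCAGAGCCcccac
H2ac20: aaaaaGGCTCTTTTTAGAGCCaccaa
H3c2: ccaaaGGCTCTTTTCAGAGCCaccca
H3c6: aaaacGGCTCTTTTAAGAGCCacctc
H4c4: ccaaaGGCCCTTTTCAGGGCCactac
The form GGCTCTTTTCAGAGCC was the commonest, in 26 members of the H1, H2A, H2B and H3 families. The form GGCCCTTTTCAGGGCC was found in 7 members, all of them H4 genes. Most transcripts without a match have about the length of the coding sequence, such as H2bc18 and H2bc15 at 381 bases, and no match there says nothing about the message beyond it. Long annotated transcripts without a match were those of H2bc4 (1156 bases), H2bc21 (2620), H2bc23 (2015) and H4bc24 (2197), the last counted with the H2B genes by its older symbol. In the count table itself 28 of the 69 members have exactly the commonest exon length of their family, such as 312 bases for H4 genes. A length that is a multiple of 3, as a coding sequence has, occurs in 49 of the 69. Some of these are long models, such as H2ac6 at 2493 bases, so the multiple alone does not mark a coding model.

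Promoters were taken from RefSeq (GRCm38.p6, the mm10 assembly) as 250 bases before to 50 after the start, and were there for 62 members. Motifs were searched on both strands. GGTCCG, part of the element bound by the H4 regulator Hinfp, lay in 11 of 12 H4 promoters, 1 of 16 H2B, 1 of 10 H3 and none of the H1 or H2A promoters, against 9.44% of all genes. The octamer ATTTGCAT, bound by Pou2f1, lay in 7 of 18 H2A and 7 of 16 H2B promoters and in none of the other families, against 1.97% of genes. CCAATCA, a form of the CCAAT box with which it overlaps, lay in 6 of 6 H1, 13 of 18 H2A, 13 of 16 H2B, 6 of 10 H3 and 0 of 12 H4 promoters, against 9.0% of genes, and AAACACA, the H1 box, in 5 of 6 H1 promoters, against 8.22%. TTTCGCG, a core that E2F factors bind, lay in 8 of 18 H2A and 5 of 16 H2B promoters and in none of the others, against 0.969%. Divergent H2A and H2B neighbours start 168 to 335 bases apart, so their windows share bases and 1 site can be counted in both families. The divergent H2A neighbour of each of the 5 H2B promoters with TTTCGCG also held it. TATAAA lay in 35 of the 62, against 15.7%. Such a match describes the letters and is not a measured binding site. The windows of H4c4, H1f4, H2ac6 and H2ac20 are given because H4c4 and H1f4 are among the most counted members, and because those of H2ac6 and H2ac20 span the stretch between these genes and their divergent neighbours H2bc4 and H2bc21. The H4 element, the H1 box, CCAATCA, the TATA box and the octamer are in capitals, the octamer on the opposite strand in both windows that hold it. TTTCGCG is not marked, and the H2ac20 window also holds it, on the opposite strand (cgcgaaa).
H4c4, chr13:23581318-23581617, plus strand: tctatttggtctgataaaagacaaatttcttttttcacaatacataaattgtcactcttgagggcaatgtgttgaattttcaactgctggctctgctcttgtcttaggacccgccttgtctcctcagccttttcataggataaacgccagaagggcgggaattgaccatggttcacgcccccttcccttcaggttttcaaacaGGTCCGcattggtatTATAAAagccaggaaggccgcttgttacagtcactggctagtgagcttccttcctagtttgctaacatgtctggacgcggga
H1f4, chr13:23622509-23622808, minus strand: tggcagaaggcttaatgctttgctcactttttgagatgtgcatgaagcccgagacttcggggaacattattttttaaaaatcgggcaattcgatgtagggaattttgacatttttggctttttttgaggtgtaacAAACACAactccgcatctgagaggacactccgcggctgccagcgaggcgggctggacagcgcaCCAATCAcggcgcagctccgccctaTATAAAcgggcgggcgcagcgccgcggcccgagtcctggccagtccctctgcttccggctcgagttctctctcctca
H2ac6, chr13:23683910-23684209, minus strand: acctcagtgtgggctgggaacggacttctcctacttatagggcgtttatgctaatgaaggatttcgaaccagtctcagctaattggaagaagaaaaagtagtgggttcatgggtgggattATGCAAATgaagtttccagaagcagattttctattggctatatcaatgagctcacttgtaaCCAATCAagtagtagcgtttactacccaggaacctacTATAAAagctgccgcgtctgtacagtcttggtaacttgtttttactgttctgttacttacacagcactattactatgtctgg
H2ac20, chr3:96220831-96221130, minus strand: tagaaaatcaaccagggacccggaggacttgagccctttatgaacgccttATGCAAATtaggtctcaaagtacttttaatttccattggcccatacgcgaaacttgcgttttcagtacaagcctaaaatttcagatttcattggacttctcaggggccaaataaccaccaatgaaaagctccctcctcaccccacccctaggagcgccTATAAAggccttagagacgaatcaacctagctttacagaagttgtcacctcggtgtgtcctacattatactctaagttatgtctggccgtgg

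Histone RNA differed up to 7.02-fold between libraries and the differences followed the sort in only part of them. The summed level of the 69 genes was 1660, 1219, 3444 and 1904 CPM in the normal Lrig1-low libraries, a mean of 2057 ± 968 CPM (SD, n = 4). It was 3937, 4284, 925 and 6498 CPM in the normal Lrig1-high libraries, a mean of 3911 ± 2291 CPM (SD, n = 4). The tumor Lrig1-low libraries stood at 1276, 3545 and 975 CPM, a mean of 1932 ± 1405 CPM (SD, n = 3), and the tumor Lrig1-high libraries at 4679, 1154 and 1925 CPM, a mean of 2586 ± 1853 CPM (SD, n = 3). All 4 groups overlapped. S10 was the lowest of the 14 although labelled high, and S07 and S09 were high although labelled low. S08 and S12, both labelled high, stood at 1154 and 1925 CPM, below S07 and S09. Counted from the top, 6 libraries (S14, S04, S06, S02, S07 and S09) lay between 3444 and 6498 CPM and the other 8 between 925.4 and 1925 CPM, with the widest gap of the order between them. These are counts from sorted bulk cells, in which fewer cells in S phase and less histone RNA per cell cannot be told apart.

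**Figure D1:**
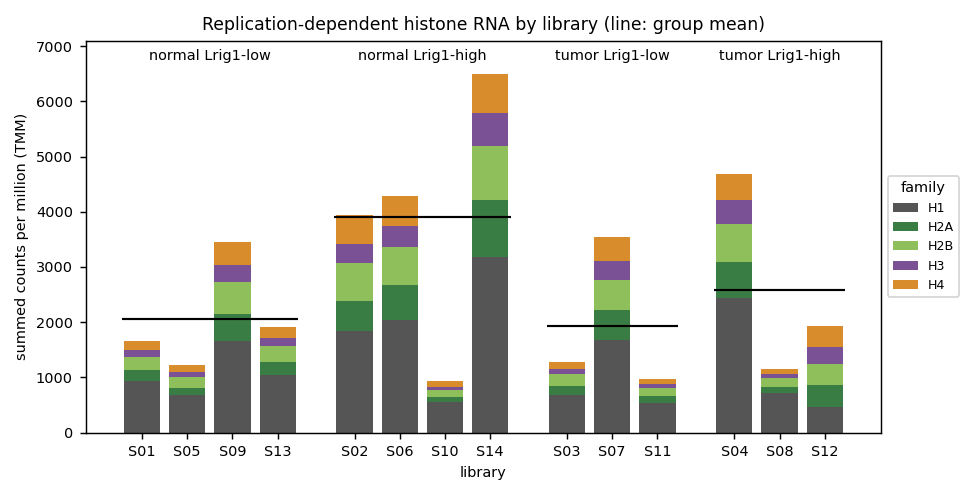
Summed TMM-scaled CPM of the 69 histone genes in each of 14 libraries, stacked by family, with the group mean as a black line. The groups overlap: S09 and S07 are high among the Lrig1-low libraries, S10 and S08 low among the Lrig1-high libraries, and S12 has a small H1 part.

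Nearly all members shared this order. In each of the 6 upper libraries 59 to 61 of the 62 tested members lay above their own median over the 14 libraries, and in each of the 8 lower libraries 1 to 25 did. The upper libraries were set by the sum of these same members, so this count was in part built in and is a description only. Neither this count nor the correlation that follows was computed over all genes. The rank correlation of a member with the sum of the other members had a median of 0.864 over the 62 members, and 47 members were at 0.8 or more (Spearman's rho over 14 libraries, which share depth and scaling with the sum). It was below 0.5 in 4 members, H1f6 (-0.64), H2bc21 (0.081), H3c14 (0.323) and H2bc4 (0.389), which were singled out after their values were seen. H1f6, the testis linker histone, and H3c14 were near the limit of detection, with means of 0.354 and 1.11 CPM.

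**Figure D2:**
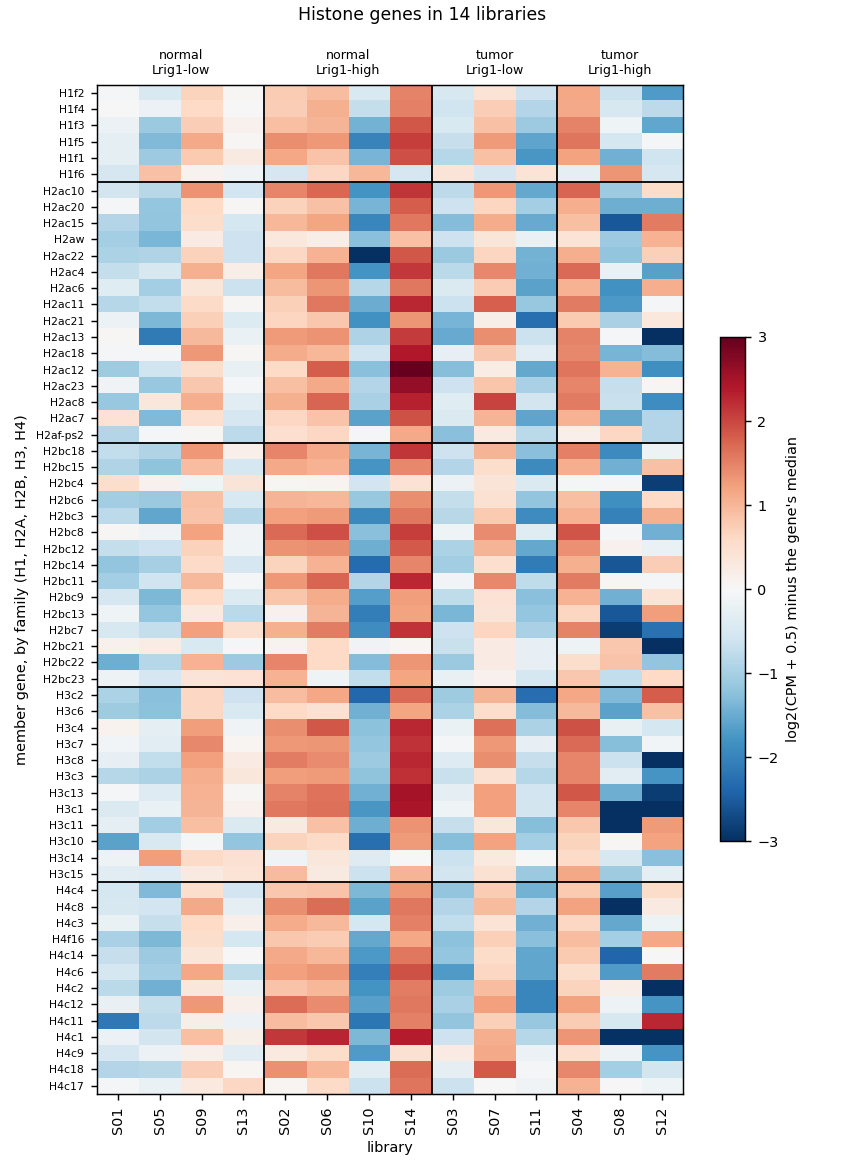
Each row is 1 of the 62 tested histone genes, ordered by family and mean level, each column a library, and the colour the log2(CPM + 0.5) minus the gene's median over the 14 libraries. Columns S02, S04, S06, S07, S09 and S14 are red in almost every row, H2bc4 and H2bc21 stay pale outside S12, H1f6 goes against the columns, and S12 and S08 mix dark blue and red rows.

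The linker histones gave 46.9% to 61.7% of the histone sum in the libraries other than S12, with longer counted models (1561 bases for H1f2 and 1931 for H1f4, against 312 for H4c4). H1f2 and H1f4, somatic H1 subtypes that bind the linker DNA between nucleosomes, had the highest counts of all members. H1f2 stood at 352, 261, 575 and 369 CPM in the normal Lrig1-low libraries and at 608, 681, 262 and 1012 CPM in the normal Lrig1-high libraries. In tumors it stood at 257, 483 and 235 CPM in Lrig1-low and at 802, 231 and 110.0 CPM in Lrig1-high libraries. S02, S06 and S14 were above every normal Lrig1-low library, and S10 was at the level of S05. For H1f4 the normal libraries gave 288, 256, 443 and 293 CPM in Lrig1-low and 488, 606, 176 and 829 CPM in Lrig1-high cells. The tumor libraries gave 192, 482 and 159 CPM for the low sort and 635, 208 and 168 CPM for the high sort. S12 was low for both genes. H1f3, H1f5 and H1f1 followed with means of 285.6, 139.2 and 74.9 CPM over the 14 libraries. Per kilobase of counted exon, H1f2 (285.4 CPM per kb) ranked second and H1f4 (193.2) eighth of the tested members. H1f2 lies at chr13:23738807-23740367 and H1f4 at chr13:23620628-23622558 (mm10).

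The H1 share of the histone sum was 46.9% to 51.9% in the 6 upper libraries and 54.0% to 61.7% in the lower libraries other than S12, and that of the core histones was 48.1% to 53.1% and 38.3% to 46.0%. S12 stood apart from both sets, with 24.5% H1. The summed H1 genes differed 6.75-fold between the highest and the lowest library, the H2A genes 11.4-fold, the H2B genes 7.65-fold, the H3 genes 11.5-fold and the H4 genes 7.72-fold.

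Of the H2A genes, H2ac10 and H2ac20 had the most counts. H2ac10 was counted at 36.6, 29.9, 138 and 36.2 CPM in normal Lrig1-low and at 149, 178, 15.2 and 242 CPM in normal Lrig1-high libraries. Among tumors, H2ac10 was at 31.1, 134 and 18.2 CPM in the low and at 181, 24.8 and 79.03 CPM in the high sort. S09 stood far above the other 3 normal Lrig1-low libraries and S10 below all of them. The normal Lrig1-low libraries held 66.7, 30.1, 103 and 69.1 CPM of H2ac20, and the normal Lrig1-high libraries 109.9, 125, 25.6 and 239.7 CPM. The tumor values of H2ac20 were 44.1, 106 and 33.1 CPM in Lrig1-low and 145, 24.5 and 24.1 CPM in Lrig1-high libraries. The same libraries were high, but S12 was the lowest. H2aw, the most counted member on chromosome 11, was flatter: 14.9, 11.6, 36.5 and 19.99 CPM in normal Lrig1-low and 38.3, 35.6, 12.6 and 56.8 CPM in normal Lrig1-high libraries, with tumor values of 19.9, 39.8 and 26.7 CPM and 41.4, 14.1 and 64.1 CPM. Here S12 was the highest library. The other 13 tested H2A genes averaged 1.09 CPM (H2af-ps2, a transcribed pseudogene) to 59.7 CPM (H2ac15). In H2ac10, 84.3% of the 36-base words of its transcript also occur in another member, and in H2ac20 49.1%, and the authors' counting command had no option to count reads that align to several places, so reads of such genes may be missing. This held for many members: 35 of 68 shared at least 50% of their words, and H2ac19, whose words all occur in H2ac18, had 10 counts in all.

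Of the H2B genes, H2bc18 and H2bc15 had the most counts. H2bc18 stood at 39.7, 35.1, 164 and 73.1 CPM in the normal Lrig1-low libraries and at 183, 147, 24.7 and 295 CPM in the normal Lrig1-high libraries. In tumors it stood at 43.2, 135 and 27.5 CPM in Lrig1-low and at 189.8, 17.2 and 59.9 CPM in Lrig1-high libraries. For H2bc15 the normal libraries gave 33.02, 26.5, 118 and 42.7 CPM in Lrig1-low and 137, 129, 17.8 and 169 CPM in Lrig1-high cells. The tumor libraries gave 33.7, 89.8 and 16.1 CPM for the low sort and 131, 22.4 and 115 CPM for the high sort. In both genes S09 exceeded the other normal Lrig1-low libraries more than 2-fold, and S10 and S08 were among the 4 lowest. The other 13 tested H2B genes averaged 0.485 CPM (H2bc23) to 51.6 CPM (H2bc4). Only 4.62% of the words of H2bc18 but 87.9% of those of H2bc15 occur in another member, and both showed the same libraries high.

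H3c2 and H3c6 led the H3 family, which encodes the replication-dependent H3 proteins. H3c2 was counted at 25.7, 20.9, 77.2 and 32.8 CPM in normal Lrig1-low and at 96.9, 113, 9.52 and 164 CPM in normal Lrig1-high libraries. Among tumors, H3c2 was at 23.7, 103 and 9.998 CPM in the low and at 112, 19.98 and 178 CPM in the high sort. S12 was the highest of the 14 for H3c2. The normal Lrig1-low libraries held 20.2, 17.9, 65.6 and 31.03 CPM of H3c6, and the normal Lrig1-high libraries 65.4, 58.7, 15.3 and 96.9 CPM. The tumor values of H3c6 were 22.04, 61.9 and 17.03 CPM in Lrig1-low and 83.9, 13.7 and 78.4 CPM in Lrig1-high libraries. The other 10 H3 genes averaged 0.919 CPM (H3c15) to 35.4 CPM (H3c4). H3c1 went the opposite way to H3c2 in S12: it stood at 0.108 CPM there and at 0 in S08, against 1.58 to 37.7 CPM in the other 12 libraries. S12 and S08 were also the libraries with the fewest genes with a count, and the part of this in the low values was not tested.

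H4c4 was the most counted core histone gene and, per kilobase of counted exon, the highest of all members (471.8 CPM per kb). Its counted model has 312 bases and its annotated transcript 1138, so this rank depends on the models counted. H4c4 stood at 91.7, 52.3, 189 and 88.4 CPM in the normal Lrig1-low libraries and at 230.2, 239, 51.2 and 327 CPM in the normal Lrig1-high libraries. In tumors it stood at 57.3, 223 and 48.6 CPM in Lrig1-low and at 228, 42.2 and 193 CPM in Lrig1-high libraries. The 6 upper libraries and S12 lay at 188.5 CPM or more, and the other 7 at 91.7 CPM or less. H4c8 was second in the family. For H4c8 the normal libraries gave 19.1, 17.9, 59.6 and 22.2 CPM in Lrig1-low and 71.5, 87.1, 8.49 and 81.1 CPM in Lrig1-high cells. The tumor libraries gave 14.4, 52.4 and 14.4 CPM for the low sort and 62.5, 2.74 and 32.7 CPM for the high sort. H4f16, the single member on chromosome 6 (chr6:136801553-136804431) and free of shared words, had a rank correlation of 0.881 with the sum of the other members. H4f16 was counted at 10.8, 8.23, 31.8 and 14.8 CPM in normal Lrig1-low and at 38.3, 37.3, 7.15 and 49.4 CPM in normal Lrig1-high libraries. Among tumors, H4f16 was at 8.94, 35.9 and 8.81 CPM in the low and at 41.5, 10.4 and 48.9 CPM in the high sort. The other 10 H4 genes averaged 0.468 CPM (H4c17) to 26.5 CPM (H4c3). H4c1 was at 0 in S08 and S12, the libraries with the fewest genes with a count, against 1.03 to 19.5 CPM elsewhere.

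Chromosome 13 held most of the histone counts in every library. Its cluster gave 87.8% to 92.3% of the histone sum and the chromosome 3 cluster 5.58% to 10.4%. The cluster on chromosome 11 gave 0.856% to 3.33% and the gene on chromosome 6 0.653% to 2.54%, both with the highest value in S12.

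The first comparison asked whether Lrig1-high and Lrig1-low cells of normal epithelium differ. The members' fold changes were nearly all positive, 60 of 62, with a median log2 fold change of 1.11 against 0.01 for all 13883 genes tested. By family the medians were 0.83 for H1, 1.27 for H2A, 1.04 for H2B, 1.15 for H3 and 1.06 for H4. Single values were 0.72 ± 0.54 (SE) for H1f2, 0.71 ± 0.52 (SE) for H1f4, 1.28 ± 0.84 (SE) for H2ac10, 0.90 ± 0.69 (SE) for H2ac20 and 1.06 ± 0.80 (SE) for H2bc18. H2bc15 had 1.04 ± 0.73 (SE), H3c2 1.29 ± 0.85 (SE), H3c6 0.81 ± 0.65 (SE), H4c4 1.01 ± 0.66 (SE) and H4c8 1.06 ± 0.82 (SE), and H2aw and H4f16 had 0.79 ± 0.51 (SE) and 1.01 ± 0.67 (SE). No member passed the test (edgeR's quasi-likelihood test with Benjamini-Hochberg adjustment over all genes, every adjusted p = 1.0), where 0.0% of all genes did. Without adjustment 1 member was under the threshold of 0.05, H2ac12, with 2.40 ± 1.07 (SE), against 499 of all genes tested. No member had values that did not overlap between the groups, against 2.84% of genes.

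In tumors, Lrig1-high over Lrig1-low, 52 of 62 members had a positive fold change and the median was 0.45, against -0.06 for all genes. The values were 0.23 ± 0.62 (SE) for H1f2, 0.64 ± 0.96 (SE) for H2ac10, 0.94 ± 0.84 (SE) for H2bc15, 1.18 ± 0.98 (SE) for H3c2 and 0.49 ± 0.75 (SE) for H4c4. No member passed (smallest adjusted p = 0.712, edgeR) and none had groups without overlap, against 0.0% and 7.46% of genes. Without adjustment 0 members were under 0.05, against 1042 of all genes. The direction rested on single libraries. Without S04 the median was -0.48, and 2 members, H3c1 and H4c1, were called lower with 2.53% of genes called. Both are at or near 0 in S08 and S12, and both were also called lower without S04 in tumor over normal Lrig1-high cells (5.59% of genes called) and in the interaction (1.09%). Without S04 the only tumor Lrig1-high libraries left are S08 and S12, those with the fewest genes with a count. The median in tumors was 1.45 without S07, 0.81 without S08 and 0.58 without S12.

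**Figure D3:**
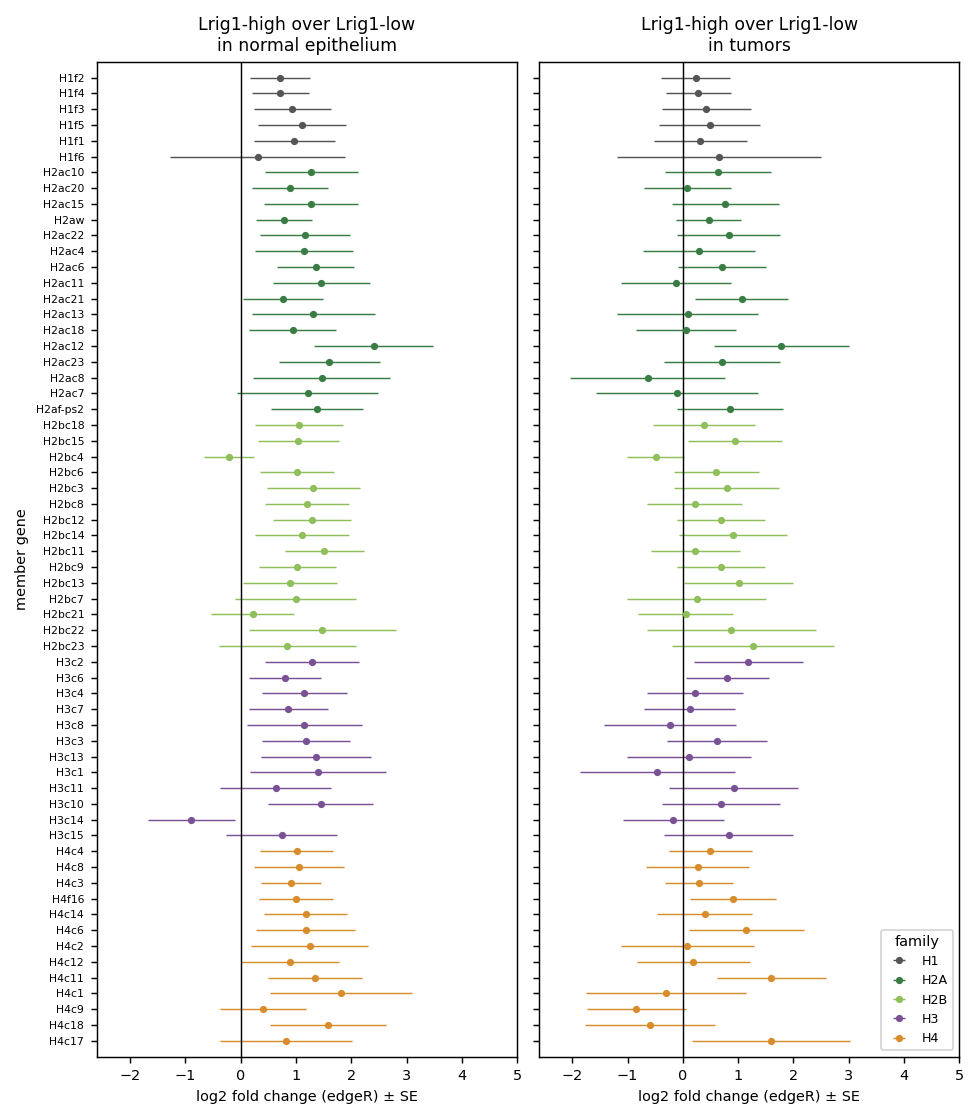
Log2 fold change between the high and the low sort with its standard error (edgeR, 14 libraries) for each of 62 tested histone genes, in normal epithelium on the left and in tumors on the right, coloured by family. In normal epithelium 60 of 62 points lie right of 0 with wide bars, H2bc21 lies near 0, and H2bc4 and H3c14 lie left of it. In tumors the points scatter around a median of 0.45.

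Between tissues, the members' median log2 fold change of tumor over normal was -0.07 in Lrig1-low cells (27 of 62 positive) and -0.63 in Lrig1-high cells (6 of 62 positive), against 0.02 and -0.04 for all genes. The interaction, the difference of the sort effect between tumor and normal, had a median of -0.61, against -0.09 for all genes. No member passed in any of the 3 (smallest adjusted p = 0.744, 0.503 and 0.740, edgeR), and 0 members were under 0.05 without adjustment, against 1949, 1559 and 999 of all 13883 genes tested. The share of genes called was 0.331% in Lrig1-low cells, 0.0% in Lrig1-high cells and 0.0% for the interaction. No member had groups without overlap, against 18.3% and 8.39% of genes. The direction in Lrig1-low cells rested on single libraries: the median was -1.01 without S07 and 0.46 without S09. In Lrig1-high cells it stayed negative, at -0.30 without S14, -1.53 without S04 and -0.69 without S07, S08, S09 and S10 together. The interaction's median turned to 0.23 without S07, was -1.52 without S04 and was -0.10 without those 4 libraries. These comparisons share libraries with those of the sort, and the values are given side by side only.

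Calls of histone genes depended on how the 4 libraries with Lrig1 RNA against their sort were treated. Without S07, S08, S09 and S10, the summed level was 1594 ± 347.5 CPM (SD, n = 3) in normal Lrig1-low and 4907 ± 1389 CPM (n = 3) in normal Lrig1-high libraries, and the median log2 fold change was 2.03. In that fit 23 of 62 members were called higher with 5.69% of genes called, among them H2ac15 (2.15 ± 0.26 (SE), adjusted p = 0.00631, edgeR), H4c8 (2.03 ± 0.25), H2bc6 (2.03 ± 0.26) and H3c2 (2.25 ± 0.37). They comprised 5 H2A, 8 H2B, 3 H3, 6 H4 and 1 H1 gene, H1f5 (2.08 ± 0.50). The span of H2bc6 (chr13:23583670-23621124) runs into that of H1f4 (chr13:23620628-23622558) on the same strand, so reads that overlap both may be missing. In tumors, with 2 libraries a group, the same fit called 7 members higher with 0.343% of genes called: H2ac15, H2bc15, H3c2, H4c4, H4f16, H4c6 and H3c6. S12, set apart above, was 1 of the 2 tumor Lrig1-high libraries there. In S12 these 7 stood at 28.8 CPM (H4c6) to 193 CPM (H4c4). Not called were H4c1 and H4c2, at 0 CPM in S12, but also H2aw, at 64.1 CPM. No member was called in the other 3 comparisons of that fit, where 3.23%, 0.0858% and 0.0% of genes were called. The 4 libraries were recognised by Lrig1 RNA, which goes with the histone level over the libraries, so these counts are not independent evidence. A fit of all 14 libraries with limma-voom sample weights, which gave S10 a weight of 0.348 and S09 one of 0.691 where the remaining normal libraries had 1.84 to 3.33, called 45 of 62 members higher in normal epithelium, where 30.0% of genes were called, and none in the other comparisons, where 0.0% (sort in tumors), 10.0% (tissue in Lrig1-low cells), 0.0% (tissue in Lrig1-high cells) and 0.0% (interaction) were. DESeq2 on the 14 libraries called no member in any of the 5, with 0.00521%, 0.158%, 4.86%, 1.07% and 0.0261% of genes called in the same order.

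H2bc4 and H2bc21 did not share the order of the other H2B genes. The normal Lrig1-low libraries held 74.8, 56.7, 47.9 and 68.5 CPM of H2bc4, and the normal Lrig1-high libraries 53.1, 55.5, 35.04 and 70.1 CPM. The tumor values of H2bc4 were 46.3, 67.7 and 38.4 CPM in Lrig1-low and 50.4, 51.01 and 6.92 CPM in Lrig1-high libraries. Apart from S12 the values lay within 35.04 and 74.8 CPM, and the upper and lower libraries overlapped. Its log2 fold change in normal epithelium was -0.21 ± 0.45 (SE). H2bc21 stood at 7.09, 7.52, 4.49 and 6.14 CPM in normal Lrig1-low, 6.88, 9.93, 5.88 and 6.66 CPM in normal Lrig1-high, 3.87, 7.65 and 5.33 CPM in tumor Lrig1-low and 5.71, 11.6 and 0.108 CPM in tumor Lrig1-high libraries, with a fold change of 0.22 ± 0.75 (SE). Both have a long transcript without a stem-loop match, as does H2bc23, which at a mean of 0.485 CPM had a rank correlation of 0.878 with the sum of the others. Each starts back to back with an H2A gene, H2bc4 at 240 bases from H2ac6 and H2bc21 at 277 bases from H2ac20. H2ac6 stood at 8.48, 5.28, 14.6 and 6.999 CPM in the normal Lrig1-low libraries and at 21.8, 28.6, 5.94 and 34.5 CPM in the normal Lrig1-high libraries. In tumors it stood at 8.10, 19.4 and 3.33 CPM in Lrig1-low and at 23.4, 2.83 and 24.1 CPM in Lrig1-high libraries. H2ac6 was high in the 6 upper libraries and S12, with a fold change of 1.36 ± 0.70 (SE). The rank correlation between the neighbours over the 14 libraries was 0.182 for H2ac6 and H2bc4 and 0.178 for H2ac20 and H2bc21. In the other 8 divergent H2A and H2B pairs with both genes tested, 168 to 335 bases apart, it ran from 0.481 to 0.899, and for H2ac15 and H2bc15 it was 0.864. The pairs were examined after the members' values were seen, and none of these differences was tested.

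**Figure D4:**
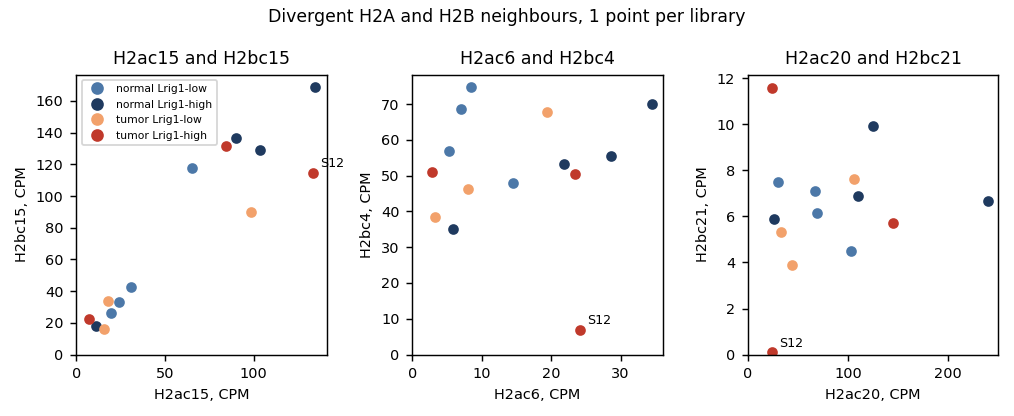
CPM of the H2B gene against CPM of its divergent H2A neighbour, 1 point per library, for 3 pairs and coloured by group. H2ac15 and H2bc15 rise together, while H2bc4 and H2bc21 show no order along H2ac6 and H2ac20, and S12 is lowest for both of these H2B genes.

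Among the genes that act on histone messages, Slbp was high in the libraries with much histone RNA, and 5 of its 6 highest values lay in the 6 upper libraries. For Slbp the normal libraries gave 30.0, 37.1, 51.9 and 37.9 CPM in Lrig1-low and 72.4, 77.3, 30.3 and 89.6 CPM in Lrig1-high cells. The tumor libraries gave 43.9, 51.2 and 29.1 CPM for the low sort and 67.6, 36.8 and 58.3 CPM for the high sort. Its log2 fold change in normal epithelium was 0.78 ± 0.32 (SE). Of 27 genes for processing and transcription of histone messages, none passed the test in any of the 5 comparisons of 14 libraries (edgeR), with a median fold change of 0.30 in normal epithelium, where 2 were under 0.05 without adjustment against 499 of all 13883 genes, and 0.00 in tumors. The 2 with the highest level, Ybx1, which coats messenger RNAs, and Upf1, a helicase of RNA decay, had fold changes of 0.00 ± 0.30 and 0.07 ± 0.31. Npat, the cyclin E target that switches on histone genes, had 0.60 ± 0.35. Of 23 histone chaperones none passed either, with a median of 0.62 in normal epithelium, where 5 were under 0.05 without adjustment against the same 499 of 13883, and 0.04 in tumors. Supt16, a subunit of the FACT complex that handles H2A and H2B, had 0.46 ± 0.29, and the chromatin remodeller Atrx, which works with the H3.3 chaperone Daxx, had 0.38 ± 0.23. Without S07, S08, S09 and S10, 4 of the 27 and 5 of the 23 were called higher in normal epithelium, in the fit that called 5.69% of genes. In tumors that fit called 0 of either list for the sort (0.343% of genes called). It called 1 of the 23 higher for tumor over normal in Lrig1-low cells (3.23%). The libraries left out of that fit were recognised by Lrig1 RNA, so its counts are not independent evidence here either.

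Variant and replacement histone genes are expressed outside S phase too. None of the 11 variant and replacement genes passed the test in any comparison (edgeR), and their median log2 fold change in normal epithelium was 0.30, with 0 under 0.05 without adjustment, against 499 of all 13883 genes. Without S07, S08, S09 and S10, 1 of the 11 was called higher in normal epithelium, where 5.69% of genes were called. In the same fit 1 of the 11 was called higher for the sort in tumors (0.343% of genes called) and 1 for tumor over normal in Lrig1-low cells (3.23%). The limit on that fit, whose libraries were chosen by Lrig1 RNA, holds for these counts too. H2ax, which marks DNA breaks and whose message has both a stem-loop and a poly-A form, ran from 24.4 to 178 CPM with a log2 fold change of 1.08 ± 0.55 (SE) in normal epithelium. H2az1 ran from 51.3 to 119 CPM (0.41 ± 0.27). H3f3b, which encodes the replacement histone H3.3, ran from 267 to 514 CPM (0.10 ± 0.23) and had its highest value in S11, a library with a low histone sum. H1f0, the linker histone of resting and differentiated cells, ran from 164 to 326 CPM (0.08 ± 0.20).

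The S phase and mitosis lists set the same 6 libraries apart as the histone genes did. The mean log2(CPM + 1) of 34 S phase genes was 5.07 to 5.97 in the 6 libraries with the highest histone sums and 3.36 to 4.59 in the other 8. For 26 genes of G2 and mitosis it was 6.14 to 7.01 and 4.25 to 5.24. Lrig1 itself was 85.5 to 148 CPM in the 6 and 36.4 to 72.6 CPM in the 8. The same 6 libraries were therefore highest in all 4 measures. Because the libraries fall into these sets, no correlation over all 14 is given. For the S phase list, within the 6 the Pearson correlation of the log2 histone sum with the list's mean was 0.675 (Spearman 0.943) and within the 8 it was 0.455 (0.238), and without the 2 libraries farthest from the median of the list it was 0.936 and -0.39. For the G2 and mitosis list it was 0.79 (Spearman 0.714) within the 6 and 0.75 (0.833) within the 8, and without the 2 farthest libraries -0.091 and 0.603. The value within the 6 thus changed with 2 libraries for the mitosis list, and so did the weak one within the 8 for the S phase list. So few points can show neither a relation nor its absence. The points share library, depth and scaling. None of the 34 or 26 genes passed the test in any comparison of 14 libraries, and the medians of their fold changes in normal epithelium were 1.13 and 0.87, with 5 and 1 under 0.05 without adjustment, against 499 of all 13883 genes. Without the 4 libraries 16 of the 34 and 15 of the 26 were called higher in normal epithelium, where 5.69% of genes were called. For the sort in tumors the same fit called 3 of the 34 and 5 of the 26 higher, with 0.343% of genes called. The 4 libraries were recognised by Lrig1 RNA, which splits the libraries into the same 6 and 8 as both lists. These counts are therefore not independent evidence. Mcm6 and Cdca7 had the highest levels of the S phase list, the first a subunit of the replicative helicase, with fold changes of 1.11 ± 0.58 and 1.72 ± 0.64. Mki67, the proliferation marker, had 0.78 ± 0.54. Of the other markers, mean log2(CPM + 1) of 14 leukocyte genes was 0.340 to 0.490 in the 6 libraries and 0.224 to 0.765 in the 8, with Ptprc, which encodes CD45, at 0 to 0.757 CPM and 0.865 to 46.1 CPM, the highest in S08 and the next, 11.2 CPM, in S05. That of 8 epithelial genes was 8.80 to 9.28 and 8.13 to 9.82. That of the 14 small intestine genes was 6.78 to 8.20 and 6.65 to 8.64, and that of the 11 colon genes 1.57 to 2.01 and 1.33 to 2.58. For 10 endothelial genes it was 0.425 to 1.06 and 0.315 to 2.002, and for 11 genes of fibroblasts and smooth muscle 0.149 to 0.360 and 0.0939 to 0.820. In normal epithelium the small intestine genes had a median log2 fold change of -0.69 between the sorts, with 12 of 14 negative, none called and 2 under 0.05 without adjustment. Without the 4 libraries that median was -2.09, with 12 of 14 negative, 6 called lower, 2 called higher and all 14 under 0.05 without adjustment, in the fit that called 5.69% of genes. The 7 tested colon genes had medians of -0.67 with and -1.90 without the 4 libraries, all 7 negative and none called. For the 8 epithelial genes they were -0.21 and -0.28, with 7 of 8 negative and 0 and 1 called lower. The 6 genes of the Lrig1 and stem cell list had 1.94 and 3.575, all 6 positive, with 0 and 6 called higher. Lrig1, by which the 4 libraries were recognised, is 1 of those 6. Mitochondrial ribosomal RNA was 12.9% to 24.4% and 14.6% to 42.8% of counts. Their part in the histone values was not tested.

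**Figure D5:**
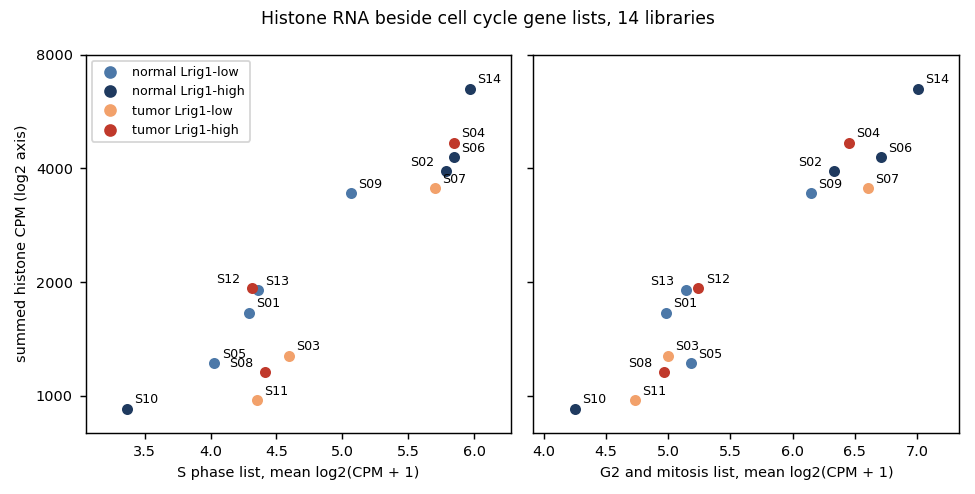
Summed histone CPM on a log2 axis against the mean log2(CPM + 1) of the S phase list (left) and of the G2 and mitosis list (right), 1 labelled point per library, coloured by group. S02, S04, S06, S07, S09 and S14 form an upper set in both panels that mixes all 4 groups, and S10 is lowest in both.

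The remaining members were rarely seen. The 7 that were not tested, H2bu2, H2bu1-ps, H2ac24, H4bc24, H2bc1, H2ac1 and H2ac19, had means of 0.0414 to 0.526 CPM. H2ac1 and H2bc1 are known for their use in the testis. Over all members, 38 averaged at least 10 CPM, 11 averaged below 1 CPM and 51 had a count in every library.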

How the data were processed

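RNA of sorted mouse cells was sequenced in 15 total RNA libraries, made with a strand-marking kit per the labels' protocols. The authors deposited 1 table of raw counts per gene, made per the file headers with featureCounts 1.5.3 on mm10 RefSeq exons, for the reverse strand and with no option for pairs, multi-mapping or overlapping reads. Reads that align to several near-identical histone genes may therefore be missing from the counts. Trimmomatic and HISAT2 and the build mm10 are named in the submitters' processing notes. Gene IDs were paired with symbols through RefSeq and GENCODE M21 for 25293 rows, and 1886 rows stayed without one.

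Genes were tested with edgeR 4.0.16 (quasi-likelihood, TMM, filterByExpr, 1 coefficient per group, 14 libraries, 13883 genes, called at an adjusted p under 0.05), after a check on simulated data. Each library left out, DESeq2 1.42.0, limma-voom 3.58.1 with sample weights, other scalings and filters were alternatives. The library minimum was 1000 counts. All 18 pairs of libraries within a group differed beyond sampling noise (chi-square of 30.8 or more per degree of freedom). The members, lists and motifs were chosen with earlier results of these data known. Values in every library are given for the 2 members of each family and the 1 of each cluster with the highest mean CPM. H2bc4, H2bc21, H2ac6, H3c1, H4c1, H2ac12 and the other members named with values were chosen after their values were seen. No pooled correlation with the cell cycle lists is given, contrary to the plan, because the libraries fall into separate sets.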

Additional observations from a re-analysis of the deposited data

Results flagged for a closer look

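Among 52 values of the histone sum, the family sums and the named genes in the groups of 4 libraries, 2 had 1 library far from the other 3 by Dixon's test. About 1 in 20 would be marked by chance. H2ac10 stood at 138 CPM in S09 against 29.9 to 36.6 CPM in the other normal Lrig1-low libraries. H4c8 stood at 59.6 CPM in S09 against 17.9 to 22.2 CPM in the same 3.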

How the results depend on the processing

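The count of called members was 0 in all 5 comparisons under every scaling, filter and model tried with 14 or 15 libraries except limma-voom, which called 45 in normal epithelium (30.0% of genes called). Without S07, S08, S09 and S10 it was 23 in normal epithelium (5.69% of genes called) and 7 in tumors (0.343%, with S12 kept), and the medians moved to 2.03 and 1.88. With 1 library left out, the count was 0 throughout for the sort in normal epithelium and for tissue in Lrig1-low cells, and 0 to 2 for the other 3, with 2 reached without S04. The members' median ran over 0.75 to 1.66 for the sort in normal epithelium, -0.48 to 1.45 for the sort in tumors, -1.01 to 0.46 and -1.53 to -0.30 for tissue in Lrig1-low and Lrig1-high cells, and -1.52 to 0.23 for the interaction. The lowest in tumors came without S04 and the highest without S07. Group means of the histone sum ran over 1594 to 2336 CPM (normal Lrig1-low), 3049 to 4907 (normal Lrig1-high), 1125 to 2410 (tumor Lrig1-low) and 1539 to 3302 (tumor Lrig1-high), and without H1 genes the first was 975.1 CPM. Library totals without TMM factors moved the median of all genes to -0.24 in tumors, where the members stood at 0.16, and to 0.24 for tissue in Lrig1-low cells, where they turned to 0.17. In tumors single genes turned sign: with 1 library left out the log2 fold change ran over -0.93 to 0.70 for H1f2, -0.56 to 0.94 for H1f4, -0.23 to 1.95 for H2ac10, -1.33 to 0.74 for H2ac20, -0.83 to 1.34 for H2bc18, -0.62 to 1.18 for H4c8, -0.014 to 0.87 for H2aw, -0.82 to 0.024 for H2bc4 and -0.93 to 0.64 for H2bc21. With library totals it was -0.066 for H2ac20 and -0.024 for H4c8. With a block for each set of neighbouring library numbers it was -0.18 for H2ac20 and -0.37 for H2bc21, and without the 4 libraries -0.57 for H2bc21. The cause was not tested. No paired analysis was possible because the labels give no number shared between groups. Neighbouring library numbers, which the labels do not call a pairing, could be fitted as a block: 0 members were called in all 5 comparisons, and the median for the sort in normal epithelium was 0.76 against 1.11 without the block.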
